A study of Mus musculus with 2 samples.

Results

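Mrc1-type nuclei are macrophage nuclei, from a library of injured periosteum and callus, that carried RNA of the mannose receptor Mrc1 or of its companion genes. They were chosen by their own UMI counts in the day 5 post-MTI library. The conditions included at least 2 UMIs of 5 macrophage genes together (Adgre1, Csf1r, Mertk, Ms4a7 and Cd84) and at least 2 UMIs of Mrc1, F13a1, Cd163 and Folr2 together. Neutrophil and collagen UMIs had to be fewer than the macrophage UMIs, osteoclast UMIs (Acp5, Oscar, Ocstamp) under 5, and monocyte UMIs (Ccr2, Ly6c2, Plac8, Chil3) under 3. This rule left 159 of the 1127 retained nuclei of the library, or 14.1% (exact binomial 95% interval 12.1 to 16.3%). The 1127 include muscle nuclei, which the study removed before its own comparisons. A UMI is a molecular tag that counts 1 captured RNA molecule once, and levels are given as CPM, counts per 1000000 UMIs, from the UMIs of a gene summed over the nuclei of a population.

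The series held 50433 barcodes in 2 single-nucleus libraries from C57BL6 mice, both prepared from scraped activated periosteum and hematoma or callus. The first was taken at day 1 post-fracture (48987 barcodes). The other was taken at day 5 after musculoskeletal traumatic injury, abbreviated MTI, in which the tibia was cut through and the surrounding muscles were compressed (1446 barcodes, 5899407 UMIs). Each library pooled injured tibias of 3 or 4 mice, 10 to 14 weeks old with both sexes mixed by the study's methods, and Sytox-labelled nuclei were sorted without selection for a cell type. A library without injury or of another day after MTI was not used here. Every comparison below was made between nuclei of the single day 5 post-MTI library. Nuclei are not replicates, so no test was possible, and all intervals are 95% intervals that cover counting error only.

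Macrophages of a healing bone derive from monocytes that enter from the blood and from cells that were resident in the tissue before injury. Early after injury they clear debris and release chemokines, and later they secrete growth factors and lipid carriers that act on skeletal stem and progenitor cells. The mannose receptor (CD206) takes up glycoproteins and collagen fragments, and F13a1 encodes the A chain of coagulation factor XIII. Cd163 encodes the receptor for haptoglobin-bound hemoglobin and Folr2 a folate receptor.

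The promoters of Mrc1 and F13a1 are shown because these genes supplied 1112 and 1342 of the 2504 marker UMIs. Both are the 250 bases before the RefSeq start site (build GRCm38.p6), written 5′ to 3′ on the strand of the gene. Capitals mark GAGGAAG or its reverse complement CTTCCTC, a core sequence of the myeloid factor PU.1. Mrc1 (chr2:14229164-14229413, plus strand) held 2 matches, 168 and 36 bases before the start, and F13a1 (chr13:37050245-37050494, minus strand) held 1 match, 66 bases before it.
Mrc1: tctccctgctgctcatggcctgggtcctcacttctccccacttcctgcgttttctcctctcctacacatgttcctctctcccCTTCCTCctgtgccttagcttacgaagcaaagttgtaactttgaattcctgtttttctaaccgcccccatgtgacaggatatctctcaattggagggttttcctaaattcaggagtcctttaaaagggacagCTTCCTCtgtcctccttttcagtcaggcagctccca
F13a1: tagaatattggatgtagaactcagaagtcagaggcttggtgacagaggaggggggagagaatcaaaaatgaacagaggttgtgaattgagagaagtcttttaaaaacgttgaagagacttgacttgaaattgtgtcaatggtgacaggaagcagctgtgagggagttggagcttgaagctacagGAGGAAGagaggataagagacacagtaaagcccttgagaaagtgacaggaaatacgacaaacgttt
The same letters occurred in 3486 of the 32851 promoter windows of the table (10.6%), and in 2 of the 6 windows of the 4 marker genes. The MAF half-site TGCTGAC (reverse complement GTCAGCA) occurred in 0 of these 6 windows and in 3.81% of all windows. A match is a stretch of letters, not a measured binding site.

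The values that chose the nuclei are given as a description. Mrc1 (chr2:14229392-14332057, plus strand, coordinates of the GENCODE annotation on GRCm38) had 1112 UMIs in 133 of the 159 nuclei, and F13a1 (chr13:36867178-37050244, minus strand) had 1342 UMIs in 128. Cd163 had 36 UMIs in 16 nuclei and Folr2 14 UMIs in 12, so the name rests on Mrc1 and F13a1. Both genes were detected together in 102 nuclei (64.2%), Mrc1 without F13a1 in 31 and F13a1 without Mrc1 in 26. The 4 genes summed to between 2 and 167 UMIs per nucleus with a median of 9. The 5 macrophage genes summed to between 2 and 59 with a median of 16.

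**Figure D1:**
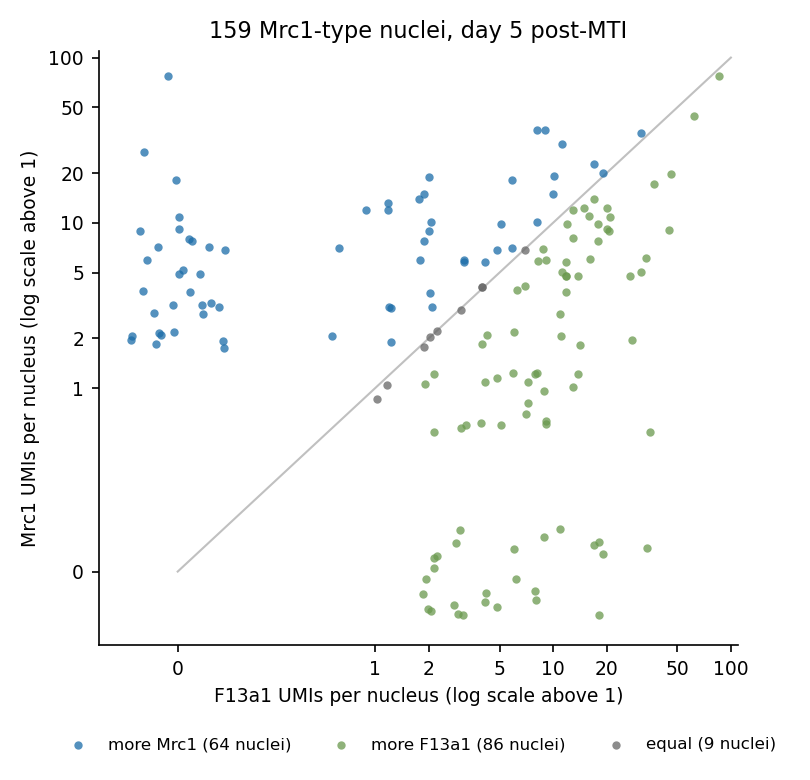
Mrc1 UMIs (vertical axis) against F13a1 UMIs (horizontal axis) in each of the 159 Mrc1-type nuclei, both axes logarithmic above 1, with a small seeded jitter and colours for the gene with more UMIs. The nuclei spread along both axes, up to 78 Mrc1 and 86 F13a1 UMIs, with 64 nuclei richer in Mrc1, 86 richer in F13a1 and 9 equal.

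The nuclei near the marker limit differed in depth and in macrophage UMIs. The 17 nuclei at exactly 2 UMIs of the 4 marker genes had a median of 18 macrophage UMIs, the 27 just outside with 1 had a median of 8, and the 50 with none had a median of 4. Their median depths were 4514, 2937 and 1965 UMIs, and macrophage UMIs made 0.411, 0.310 and 0.224% of the total. Dropping the marker condition alone would have added 77 nuclei, against 17 for the monocyte limit, 7 for the collagen limit, 3 for the macrophage minimum, 1 for the neutrophil limit and 0 for the osteoclast limit. Of these conditions the marker minimum, and after it the monocyte limit, kept out the most nuclei.

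The nuclei carried the RNA of macrophages. All 21 genes of a macrophage identity list that the rule did not use were detected, among them the lysosomal proteases Lgmn (937 CPM, in 136 nuclei) and Ctss (663 CPM, in 125 nuclei) and the lysozyme Lyz2 (435 CPM, in 98 nuclei). In stromal nuclei of the same library, which should lack them, these 3 genes stood at 76.5, 24.4 and 20.4 CPM. The list did not set them apart from other myeloid nuclei, at 6739 CPM against 7116 CPM in monocyte-side and 4754 CPM in neutrophil-side nuclei. The label of a resident-type macrophage was met only in part. Of 26 genes of that kind, the endocytic adaptor Dab2 (1473 CPM), the scavenger receptor Stab1 (790 CPM) and the transcription factor Maf (678 CPM) were abundant, but Lyve1, Timd4, Cd209b, Cd209d, Cd209f and Mgl2 had 0 UMIs, which allows up to 4.19 CPM each. The nuclei are therefore named here by the rule and not as resident macrophages.

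Defining genes of other cell types were low in sum but present in part of the nuclei. The stromal list outside the rule (Dcn, Lum and 11 others) summed to 206 CPM in Mrc1-type nuclei and 9641 CPM in stromal nuclei, with a UMI in 68 of the 159. Muscle genes had a UMI in 52 nuclei and summed to 324 CPM, of which Ttn made 54.7%, against 3349 CPM in stromal nuclei and 115 CPM in monocyte-side nuclei (ratio to the last 2.81, 1.74 to 4.83). In the 515 retained nuclei outside the populations named here they summed to 26422 CPM, so the library also held muscle nuclei. By immunofluorescence the study found CD206 macrophages of fractures only in the surrounding muscle, and after MTI also in callus fibrosis. The tissue from which each Mrc1-type nucleus came was not tested. Removing nuclei with at least 3 UMIs over the T and NK, B, mast cell, muscle, endothelial and erythroid lists would leave 118 of the 159. Stromal genes were not counted in that removal, and nuclei with fewer such UMIs stay in. Of the T and NK cell genes 6 of 10 and of the B cell genes 5 of 8 had 0 UMIs, and Il7r and Bank1 made 88.4% and 91.9% of what was left of these lists. Mast cell genes summed to 1.40 CPM and erythroid genes to 20.9 CPM. The doublet caller marked 1 of the 159 nuclei and 3 of all 1127, too few to rely on. The median depth was 4159 UMIs and 2033 genes per nucleus (896 to 13827 UMIs), against 2108 UMIs in other macrophage nuclei, 3497 in monocyte-side nuclei and 3231 in stromal nuclei.

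Against all other retained nuclei together, the genes with the highest ratios included several macrophage genes outside the rule, given as a description since the nuclei were chosen as macrophages. Cd4 was 12.1-fold higher, Spic, a transcription factor of iron-recycling macrophages, 11.2-fold, Selenop, a secreted selenium carrier, 9.05-fold, and Siglec1, the sialoadhesin of macrophages, 8.16-fold. C1qa, a chain of complement C1q, was 7.98-fold higher and Hpgds, which makes prostaglandin D, 7.58-fold. Aoah, an enzyme that inactivates lipopolysaccharide, stood at 654 CPM in 104 of the 159 nuclei against 83.7 CPM elsewhere. Tlr8, a receptor for RNA in endosomes, was 6.38-fold higher. The adrenergic receptor gene Adra1a (8.33-fold) had 66 UMIs in 20 nuclei.

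The Mrc1-type nuclei were first compared with 39 monocyte-side nuclei (156556 UMIs). These held at least 3 UMIs of Ccr2, Ly6c2, Plac8 and Chil3, neutrophil and collagen UMIs below that number, and under 5 osteoclast UMIs. Of the 4815 genes with at least 30 UMIs over both populations, 586 were at least 2-fold higher in Mrc1-type nuclei (12.2% of those tested) and 291 at least 2-fold lower (6.04%), genes of the rule left out. This balance depended on the minimum of pooled UMIs, and at a minimum of 1 it turned to 1206 genes higher and 1923 lower. Mrc1-type nuclei gave the larger pool (716849 UMIs), so a sparse gene reached 30 UMIs more easily when it was higher in them. The counts of listed genes higher or lower than on the monocyte side share this limit. They are to be read beside the shares of 12.2% and 6.04%. The median ratio over the 4815 genes was 1.02. Most genes thus lay within 2-fold, and the differences described below concern small groups of genes.

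A further comparison, added after the values were seen, was made with the 77 other macrophage nuclei (263065 UMIs), which met the remaining conditions of the rule but had fewer than 2 UMIs of the 4 markers. Here 296 of 5258 genes were at least 2-fold higher in Mrc1-type nuclei (5.63%) and 327 at least 2-fold lower (6.22%), with a median ratio of 1.01. Among nuclei of 1000 to 5000 UMIs the balance turned, with 221 higher and 135 lower. These values are a description, since the marker limit divides both populations. The other macrophage nuclei were also shallower (median 2108 UMIs) and less uniform. Endothelial genes summed to 1023 CPM in them and to 99.0 CPM in Mrc1-type nuclei, osteoclast-side genes to 2148 and 752 CPM, and B cell genes to 293 and 51.6 CPM. The part of these other cell types in the differences was not tested.

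**Figure D2:**
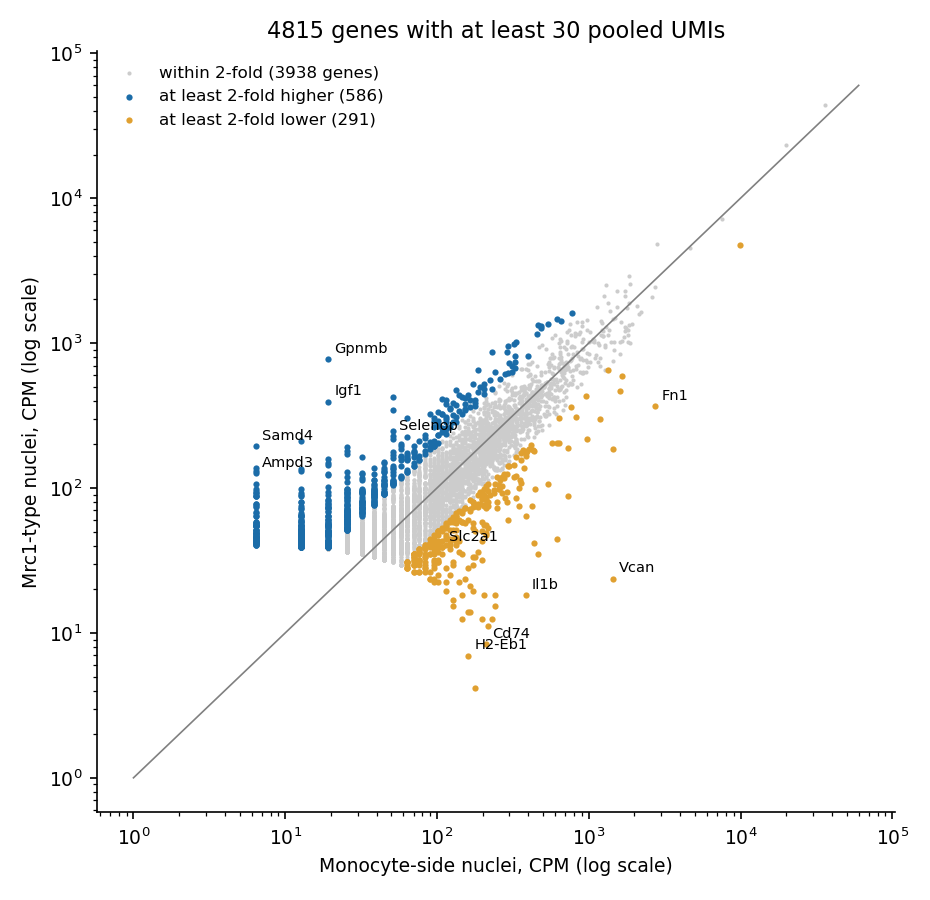
Level of 4815 genes in Mrc1-type nuclei (vertical axis) and in monocyte-side nuclei (horizontal axis), both in CPM on log axes, with genes at least 2-fold higher (586) or lower (291) in colour and the rest in grey. Most genes lie along the diagonal, and Vcan, Il1b, Cd74 and Fn1 lie below it while Gpnmb, Igf1 and Selenop lie above it.

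Secreted factors were compared by the gene lists behind the macrophage secretome scores of the study. They were taken up here with results of this library known, so their direction is not independent evidence. The pro-repair list of the study names Pf1, which was read here as Pf4. The anti-inflammatory secretome (Igf1, Gas6 and Pdgfc) stood at 942 CPM in Mrc1-type nuclei, 373 CPM in other macrophage and 204 CPM in monocyte-side nuclei. All 3 genes were at least 2-fold higher than on the monocyte side, with a median ratio of 3.33 and a ratio of the sums of 4.61 (3.23 to 6.79). All 3 were at least 2-fold higher than in other macrophage nuclei as well, with a ratio of the sums of 2.53 (2.04 to 3.16). The study reported these genes in the late macrophage subset that it marked by Mrc1, a gene that also chose the nuclei here. A higher level in Mrc1-type nuclei therefore follows in part from the choice of list and is given as a description. Both ratios of the sums differed from equality by more than counting error.

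Insulin-like growth factor 1 (Igf1, chr10:87858265-87937042, plus strand) had 283 UMIs in 67 Mrc1-type nuclei, 35 UMIs in 17 other macrophage nuclei and 3 UMIs in 2 monocyte-side nuclei. Its level was 395 CPM (350 to 444) against 133 and 19.2 CPM, with ratios of 2.97 (2.08 to 4.35) and 20.6 (6.98 to 100.5), the last 11.8 (3.96 to 57.6) in nuclei with Y-linked UMIs, described below. After thinning to 1000 UMIs an Igf1 UMI was left in 19.1% of Mrc1-type nuclei (13.3 to 26.1%), 9 of 60 other macrophage nuclei (7.10 to 26.6%) and 0 of 39 monocyte-side nuclei, so that the shares of both macrophage populations overlapped. Pdgfc, a growth factor for mesenchymal cells, stood at 377 CPM against 186 CPM in other macrophage and 134 CPM in monocyte-side nuclei, the last with a ratio of 2.81 (1.80 to 4.61). Gas6, a bridge between dying cells and phagocytes, stood at 170 CPM against 53.2 and 51.1 CPM. All 3 genes were thus highest in Mrc1-type nuclei among the 3 populations. Igf1 differed most from the monocyte side, and Gas6 (ratio 3.20, 1.83 to 6.02) from other macrophage nuclei.

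The list was also read nucleus by nucleus. Its UMIs per 1000 UMIs of the nucleus had a median of 0.544 in Mrc1-type nuclei, with none in 39 of 159, whereas 50 of 77 other macrophage and 33 of 39 monocyte-side nuclei held none. After each nucleus was thinned to 1000 UMIs, 49.7% of Mrc1-type nuclei held a UMI of these 3 genes, against 23.3% of other macrophage and 10.3% of monocyte-side nuclei. Stromal nuclei, which express Igf1 and Pdgfc themselves, reached 34.3%. The order of the 3 populations was thus kept at equal depth. The summed ratio to the monocyte side was less certain in size, from 3.71 in Y-linked nuclei (described below) to 32.5 in nuclei of 1000 to 5000 UMIs, and 21 of the 32 list UMIs on the monocyte side were Pdgfc UMIs of 4 nuclei.

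**Figure D3:**
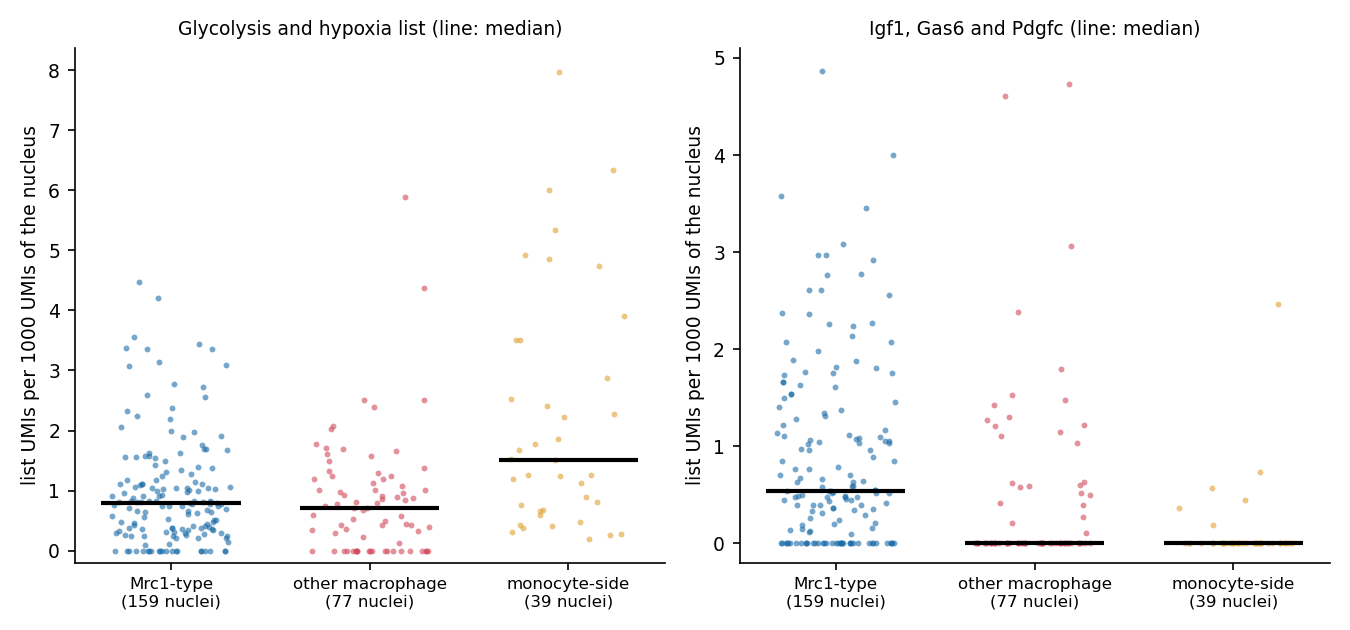
UMIs of the glycolysis and hypoxia list (left) and of Igf1, Gas6 and Pdgfc (right) per 1000 UMIs of each nucleus in Mrc1-type, other macrophage and monocyte-side nuclei, with 1 point for each nucleus and a line at the median. The hypoxia list is highest on the monocyte side (medians 0.791, 0.713 and 1.50), and only in Mrc1-type nuclei is the median of the 3 secreted factors above 0.

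The pro-repair secretome differed little between the 3 populations when all nuclei were summed. It stood at 1119 CPM in Mrc1-type nuclei, 1030 CPM in other macrophage and 1003 CPM in monocyte-side nuclei, with a ratio to the last of 1.12 (0.939 to 1.33). Within Y-linked nuclei (described below) the ratio was 1.46 (1.13 to 1.92) to the monocyte side and 1.27 (1.06 to 1.53) to other macrophage nuclei, and within Xist nuclei 0.861 (0.662 to 1.13) and 0.872 (0.679 to 1.13). Of its 8 genes 1 was at least 2-fold higher than on the monocyte side, the hepatocyte growth factor gene Hgf (85.1 against 38.3 CPM, with an interval of the ratio from 0.963 to 6.29), and 0 were lower. The lipid carrier Apoe stood at 356 CPM in 74 nuclei against 262 CPM on the monocyte side (ratio 1.36, 0.974 to 1.94) and 110 CPM in other macrophage nuclei (ratio 3.23, 2.19 to 4.92). Platelet factor 4 (Pf4) was at 58.6, 76.7 and 15.2 CPM in Mrc1-type, monocyte-side and other macrophage nuclei. Pltp, which transfers phospholipids between lipoproteins, stood at 227, 198 and 198 CPM. After thinning, however, 17.8% of Mrc1-type nuclei and 9 of 60 other macrophage nuclei held an Apoe UMI, with overlapping intervals (12.2 to 24.7% and 7.10 to 26.6%). Sema4d went the other way at 100.4 against 247 CPM in other macrophage nuclei (ratio 0.406, 0.287 to 0.577).

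The pro-inflammatory secretome was lower than on the monocyte side in all 5 genes. It stood at 169 CPM in Mrc1-type and 1022 CPM in monocyte-side nuclei, a ratio of 0.165 (0.129 to 0.210), and the median ratio of its genes was 0.300. Thrombospondin 1 (Thbs1) stood at 44.6 CPM in 13 nuclei against 613 CPM in 14, a ratio of 0.0728 (0.0472 to 0.110), and the chemokine Cxcl2 at 33.5 against 172.5 CPM (0.194, 0.107 to 0.349). The chemokines Ccl9, Ccl7 and Ccl2 had ratios of 0.300, 0.417 and 0.480, the last with an interval from 0.218 to 1.14. Other macrophage nuclei were about as low as Mrc1-type nuclei, at 118 CPM, with 0 of the 2 genes tested past 2-fold. A low level of these genes was therefore shared by the macrophage nuclei with and without the markers.

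Taco1, Spp1, Nampt, Il15 and Ly86, also named by the study for macrophages, were within 2-fold of the monocyte side, from 1.00 for Il15 to 1.41 for Nampt. Cd68, its marker of intermediate macrophages, stood higher. It was at 60.5 CPM in members with more Mrc1 than F13a1 UMIs and 55.1 CPM in those with more F13a1. Monocyte-side nuclei had 19.2 CPM of Cd68 (3 UMIs) and other macrophage nuclei 22.8 CPM. Osteopontin (Spp1) passed 2-fold against other macrophage nuclei at 785 against 346 CPM, a ratio of 2.27 (1.82 to 2.87). A general list of growth factors, which shares Igf1 and Pdgfc with the secretome, had 4 of 9 genes at least 2-fold higher than on the monocyte side, 2 lower and a median ratio of 1.39. The higher ones were Igf1, Pdgfc, Hgf and Tnfsf12, the lower ones Vegfa and the matrix protein gene Tgfbi (467 against 1610 CPM). Summed, the list went the other way, at 1823 against 2312 CPM, a ratio of 0.789 (0.701 to 0.888). In the comparison with other macrophage nuclei 4 of 8 were higher, among them progranulin (Grn, 159 against 72.2 CPM), and Pdgfb was lower (51.6 against 118 CPM).

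**Figure D4:**
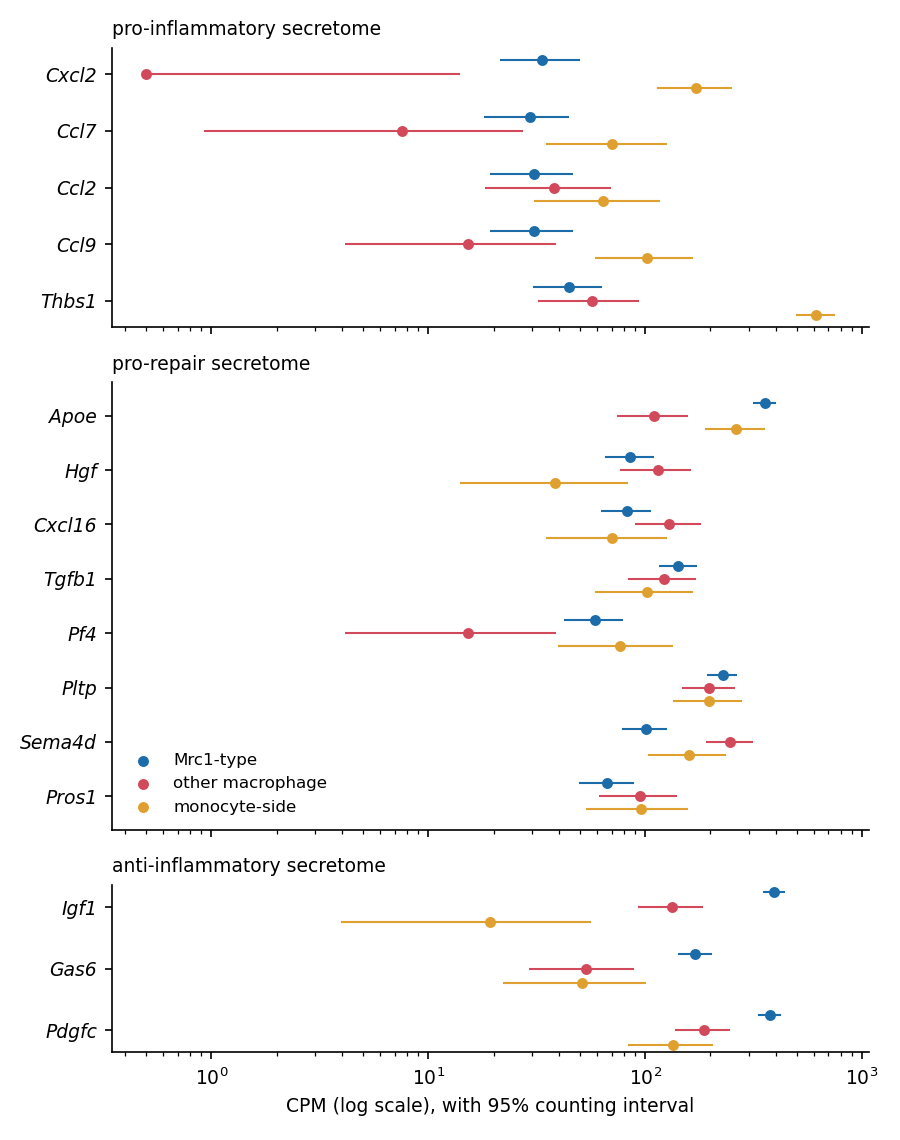
Level in CPM on log axes of the secretome genes in 3 panels (inflammatory, repair and anti-inflammatory) for Mrc1-type, other macrophage and monocyte-side nuclei, with 95% counting intervals and a gene with 0 UMIs drawn at the left edge. Igf1 is highest in Mrc1-type nuclei (395, 133 and 19.2 CPM) and Thbs1 highest on the monocyte side (44.6, 57.0 and 613 CPM).

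Glycolysis and hypoxia response genes were lower in Mrc1-type nuclei than on the monocyte side as a group. Of 12 listed genes tested 9 were at least 2-fold lower and 0 were higher, with a median ratio of 0.365 against 1.02 for all genes tested. Summed over the list of 14, the level was 951 CPM in Mrc1-type and 2255 CPM in monocyte-side nuclei, a ratio of 0.422 (0.371 to 0.481). The other macrophage nuclei stood at 886 CPM, a ratio of 1.07 (0.924 to 1.25), so the low level was common to both macrophage populations. The median mitochondrial share of UMIs was 0.0944% in Mrc1-type, 0.125% in other macrophage and 0.270% in monocyte-side nuclei, and its part in this difference was not tested.

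The growth factor gene Vegfa had 15 UMIs in 12 Mrc1-type nuclei (20.9 CPM) and 26 UMIs in 10 monocyte-side nuclei (166 CPM), a ratio of 0.126 (0.0620 to 0.247). Slc2a1, the glucose transporter GLUT1, stood at 39.1 CPM in 22 nuclei against 109 CPM in 9 (0.360, 0.190 to 0.700). Bnip3, a receptor for the removal of mitochondria, stood at 40.5 CPM in 23 nuclei against 121 CPM in 9 (0.333, 0.181 to 0.629). Before thinning, each of these 3 genes was found in a larger share of the monocyte-side nuclei. After thinning, the shares of Vegfa, Slc2a1 and Bnip3 were 3.18, 4.46 and 5.10% against 15.4, 7.69 and 7.69%, and the intervals overlapped. Within Xist and Y-linked nuclei (described below) the ratio of Bnip3 was 0.358 (0.0978 to 1.43) and 0.406 (0.173 to 1.03). That of Slc2a1 was 0.469 (0.159 to 1.54) and 0.258 (0.109 to 0.629). Egln3, an oxygen-sensing prolyl hydroxylase that is itself induced by hypoxia, had too few pooled UMIs for the count above but differed most, with 6 UMIs in 5 of 159 nuclei against 22 UMIs in 6 of 39 (8.37 against 141 CPM).

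The enzymes of glycolysis had ratios to the monocyte side of 0.308 for Eno1, 0.320 for Ldha, 0.344 for Hk2, 0.371 for Pfkp and 0.480 for Pkm. The endoplasmic reticulum oxidase Ero1l had a ratio of 0.473. Aldoa (0.532) and Pdk1 (0.510), which keeps pyruvate from entering mitochondria, stayed just within 2-fold. Pfkfb3, which makes the activator of phosphofructokinase, was near equal at 199.5 against 204 CPM, with an interval of the ratio from 0.661 to 1.48. The transcription factor Hif1a itself was at 273 against 543 CPM, a ratio of 0.504 (0.388 to 0.657). Compared with other macrophage nuclei, Hk2 (2.12), Ero1l (2.39) and Aldoa (2.04) were at least 2-fold higher in Mrc1-type nuclei, on 9, 10 and 7 UMIs in the other macrophage nuclei.

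**Figure D5:**
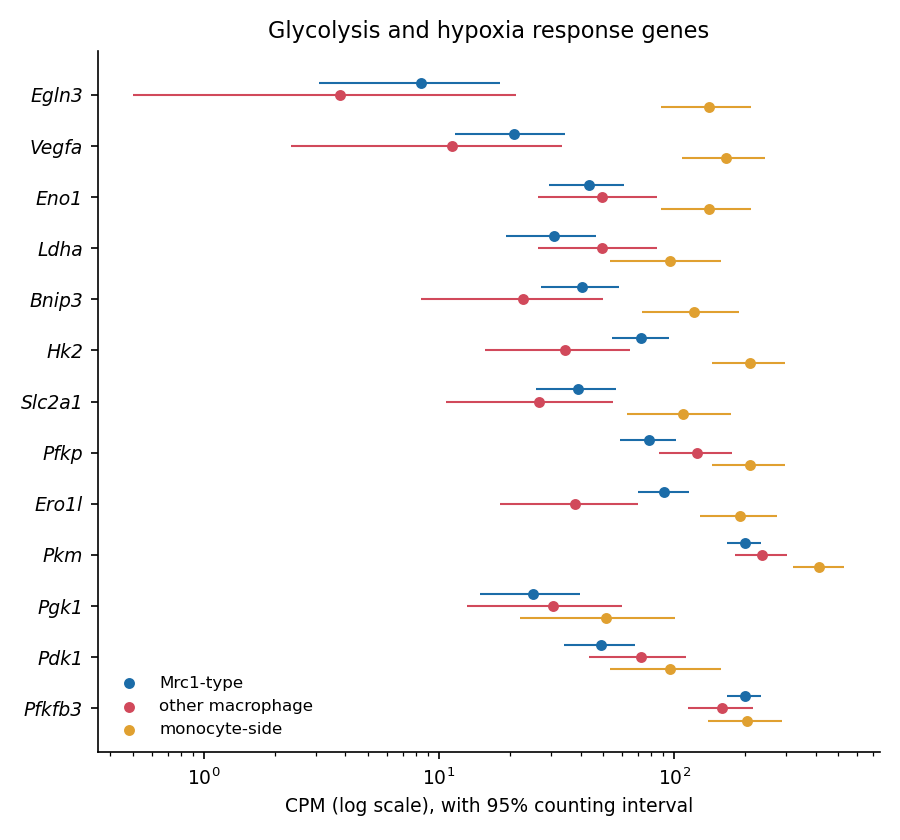
Level of 13 glycolysis and hypoxia genes in CPM on a log axis in Mrc1-type, other macrophage and monocyte-side nuclei, with points for the summed level and bars for its 95% counting interval. Egln3 (8.37 against 141 CPM) shows the widest gap between Mrc1-type and monocyte-side nuclei, and the intervals of Pfkfb3 overlap.

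Nucleus by nucleus, the list made a median of 0.791 UMIs per 1000 in Mrc1-type nuclei (quartiles 0.341 and 1.29, highest 4.46) and 1.50 on the monocyte side (quartiles 0.669 and 3.19, highest 7.97). No list UMI was found in 21 of the 159 Mrc1-type nuclei and in 0 of the 39 monocyte-side ones. The nuclei overlapped, and the highest monocyte-side nuclei lay above every Mrc1-type nucleus. After thinning to 1000 UMIs, 49.7% of Mrc1-type nuclei kept a UMI of the list, against 30 of 60 other macrophage nuclei, 82.1% of monocyte-side and 52.5% of stromal nuclei. Stromal nuclei express these genes too and give no background level for them.

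The promoters of Bnip3 and Slc2a1 are shown because both genes were at least 2-fold lower than on the monocyte side and their windows hold the letters bound by hypoxia-inducible factors. Capitals mark ACGTG or its reverse complement CACGT, and in Bnip3 both overlap in 1 stretch. Bnip3 (chr7:138909507-138909756, minus strand) held the matches 108 and 107 bases before the start and Slc2a1 (chr4:119108495-119108744, plus strand) 1 match 36 bases before it.
Bnip3: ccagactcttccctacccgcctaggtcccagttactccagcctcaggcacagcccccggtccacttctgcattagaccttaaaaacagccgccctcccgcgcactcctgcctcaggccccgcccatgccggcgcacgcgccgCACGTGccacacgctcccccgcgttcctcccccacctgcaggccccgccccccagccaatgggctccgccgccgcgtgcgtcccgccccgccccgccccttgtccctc
Slc2a1: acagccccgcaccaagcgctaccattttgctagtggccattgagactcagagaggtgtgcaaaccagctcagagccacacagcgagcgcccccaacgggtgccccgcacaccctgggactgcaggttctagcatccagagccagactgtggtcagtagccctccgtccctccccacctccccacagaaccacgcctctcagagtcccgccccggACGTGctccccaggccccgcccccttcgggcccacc
ACGTG, searched after the gene values were known, occurred in 5444 of all 32851 windows (16.6%) and in 12 of the 22 windows of the 13 hypoxia list genes found in the table (54.5%). It occurred in 1 of the 15 windows of the anti-inflammatory and pro-repair secretome genes named above (6.67%) and in 0 of the 6 windows of the 4 marker genes.

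The pooled mice included both sexes, and Xist and Y-linked UMIs allowed the comparison to be made within nuclei of each sex. Among Mrc1-type nuclei, 49 held at least 2 Xist UMIs and no Y-linked UMI, 83 held a Y-linked UMI and fewer than 2 Xist UMIs, 3 (1.89%) held both and 24 neither. The monocyte-side nuclei split into 13, 20, 0 and 6. The hypoxia list had a ratio to the monocyte side of 0.477 (0.379 to 0.602) in the Xist nuclei and of 0.373 (0.313 to 0.446) in the Y-linked nuclei, lower in Mrc1-type nuclei in both. The anti-inflammatory secretome had ratios of 5.01 (2.67 to 10.6) and 3.71 (2.41 to 5.98), higher in both.

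The pro-inflammatory and monocyte lists had further apart ratios. The pro-inflammatory secretome had a ratio to the monocyte side of 0.497 (0.269 to 0.951) in Xist nuclei and of 0.143 (0.104 to 0.195) in Y-linked nuclei. This followed the monocyte side, which stood at 277 CPM in its 13 Xist nuclei and 1268 CPM in its 20 Y-linked nuclei, while Mrc1-type nuclei stood at 137 and 181 CPM. The monocyte list, described next, had a ratio of 0.360 (0.308 to 0.421) in Xist nuclei and of 0.133 (0.117 to 0.151) in Y-linked nuclei. The nuclei come from few animals, so sex and animal cannot be told apart, and the difference between the sexes was not tested.

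Monocyte genes were another group lower in Mrc1-type nuclei than on the monocyte side, which was chosen by related genes. Of 7 such genes tested outside the rule, 5 were at least 2-fold lower and 0 higher, with a median ratio of 0.135, and the list stood at 1309 CPM against 6586 CPM, a ratio of 0.199 (0.182 to 0.217). Vcan, a matrix proteoglycan of monocytes, had 17 UMIs in 12 Mrc1-type nuclei and 226 UMIs in 21 monocyte-side nuclei (23.7 against 1444 CPM), a ratio of 0.0164 (0.00940 to 0.0269). Fibronectin (Fn1) stood at 367 CPM in 58 nuclei against 2728 CPM in 24, a ratio of 0.135 (0.115 to 0.157). The integrin Itgam (CD11b) had a ratio of 0.256. Itga4 and Cd44, adhesion receptors of the same list, did not reach 2-fold, with Itga4 at 278 against 287 CPM and Cd44 at 526 against 888 CPM. In other macrophage nuclei the list stood at 1756 CPM, with Fn1 at 312 CPM and Vcan at 106 CPM. The ratio of Fn1 to these nuclei was 2.05 (1.21 to 3.70) in Xist nuclei and 0.697 (0.501 to 0.975) in Y-linked nuclei.

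Fn1, Vcan and Thbs1 are also genes of stromal cells. The stromal list outside the rule stood at 206 CPM in Mrc1-type, 198 CPM in other macrophage and 600.4 CPM in monocyte-side nuclei, and its part in the higher levels of the monocyte side was not tested. F13a1, which helped to choose the nuclei, stood at 1872 CPM in Mrc1-type nuclei and 3941 CPM in monocyte-side nuclei, and Mrc1 at 1551 and 1035 CPM. After thinning, 64.3% of Mrc1-type and 64.1% of monocyte-side nuclei held an F13a1 UMI, and 62.4% and 28.2% an Mrc1 UMI. Both genes chose the Mrc1-type nuclei and not the monocyte side, so these values are a description only.

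Antigen presentation genes were lower than on the monocyte side. All 4 genes tested of the MHC class II antigen presentation list (Cd74, H2-Eb1, Ciita and Cd86) were at least 2-fold lower, and the list of 8 stood at 193 CPM against 1086 CPM, a ratio of 0.177 (0.141 to 0.223). Cd74, the invariant chain, had 6 UMIs in 5 Mrc1-type nuclei against 33 UMIs in 11 monocyte-side nuclei (8.37 against 211 CPM), and the class II chain H2-Eb1 stood at 6.98 against 160 CPM. Ciita, the switch of class II transcription, had a ratio of 0.155 and the costimulatory receptor gene Cd86 of 0.427. Cd86 made 60.9% of the list in Mrc1-type nuclei, so the class II chains themselves were nearly absent. Other macrophage nuclei held more of them than Mrc1-type nuclei, with Cd74 at 64.6 CPM and H2-Aa at 45.6 against 5.58 CPM. Dendritic cell genes moved the same way, at 67.0 CPM in Mrc1-type, 144 CPM in other macrophage and 153 CPM in monocyte-side nuclei (ratio to the last 0.437, 0.262 to 0.746). In Mrc1-type nuclei 4 of the 10 had 0 UMIs, Itgax made 45.8% of the sum, and their part in the class II values was not tested.

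All 7 inflammatory genes tested were at least 2-fold lower than on the monocyte side, 5 of them the secretome genes above. Interleukin 1 beta (Il1b) stood at 18.1 CPM in 8 nuclei against 383 CPM in 10, a ratio of 0.0473 (0.0238 to 0.0872), but 48.3% of the monocyte-side UMIs came from 1 nucleus. The inflammasome gene Nlrp3 had a ratio of 0.480. Tnf, with too few UMIs for this count, stood at 33.5, 3.80 and 19.2 CPM in Mrc1-type, other macrophage and monocyte-side nuclei (24, 1 and 3 UMIs), and 62.5% of its UMIs in Mrc1-type nuclei came from 1 nucleus. Nos2 had 1, 2 and 0 UMIs. Compared with other macrophage nuclei the inflammatory list was higher in sum in Mrc1-type nuclei, at 336 against 251 CPM (1.34, 1.02 to 1.79). All 3 genes tested were lower, however, with a median ratio of 0.807 and 0 past 2-fold.

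Resident-type genes were on the higher side against both populations. Of 12 tested, 6 were at least 2-fold higher than on the monocyte side and 0 lower (median ratio 1.92), and 9 were higher than in other macrophage nuclei and 0 lower (median ratio 2.84). Over all genes tested 12.2% were higher and 6.04% lower than on the monocyte side, and 5.63% and 6.22% against other macrophage nuclei. Summed, the list had ratios of 1.59 (1.44 to 1.76) and 2.32 (2.12 to 2.55). Selenop (chr15:3268547-3280508, plus strand) had 163 UMIs in 69 nuclei, at 227 CPM (194 to 265) against 83.6 CPM in other macrophage and 51.1 CPM in monocyte-side nuclei, with ratios of 2.72 (1.74 to 4.46) and 4.45 (2.21 to 10.5). The latter was 2.88 (1.05 to 11.0) in Xist nuclei and 7.24 (2.41 to 35.6) in Y-linked nuclei. After thinning, 19.7% of Mrc1-type nuclei held a Selenop UMI against 10.0% of other macrophage, 5.13% of monocyte-side and 2.02% of stromal nuclei. The Mrc1-type interval (13.8 to 26.8%) overlapped those of other macrophage (3.76 to 20.5%) and monocyte-side nuclei (0.627 to 17.3%). Selenop was thus found well above the share of stromal nuclei, which should lack it.

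The transcription factor Maf stood at 678 CPM against 224 CPM in other macrophage (ratio 3.02, 2.30 to 4.03) and 326 CPM in monocyte-side nuclei (2.08, 1.56 to 2.84). The endothelin receptor gene Ednrb had 98 UMIs in 28 nuclei and 0 UMIs on the monocyte side. With that 0 set at 3 UMIs over the group its ratio was 7.13, which is not a lower limit, and 33.7% of its UMIs came from 1 nucleus. Dab2 and Stab1 followed another pattern. Dab2 was at 1473 CPM against 658 and 1444 CPM in other macrophage and monocyte-side nuclei, and Stab1 at 790 CPM against 338 and 556 CPM. Both were thus more than 2-fold above other macrophage nuclei but within 2-fold of the monocyte side. The complement gene C1qa was at 110 CPM in 51 nuclei against 19.0 CPM (ratio 5.80, 2.38 to 18.3) and 95.8 CPM (1.15, 0.657 to 2.15). The scavenger receptor Colec12 had 105 UMIs, but in 20 nuclei only, and stood at 483 CPM in stromal nuclei.

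Genes for heme and iron were at least 2-fold higher than on the monocyte side in 8 of 12 tested, with 0 lower and a median ratio of 2.33. Over all genes tested 12.2% were higher and 6.04% lower, and the minimum of pooled UMIs favoured higher ones. Summed over the list, which needs no such minimum, the ratio was 1.94 (1.61 to 2.37). The iron exporter Slc40a1 had 70 UMIs in 24 nuclei and 0 UMIs on the monocyte side, a ratio of 5.10 with that 0 set at 3 UMIs. Flvcr1, a heme exporter, had a ratio of 4.08 and Blvrb, which reduces biliverdin, of 2.54. Heme oxygenase 1 (Hmox1), which breaks heme down, stood at 388 CPM in 57 Mrc1-type nuclei against 281 CPM (1.38, 1.00 to 1.94). Its ratio was 6.91 (2.28 to 34.2) in Xist nuclei and 0.842 (0.593 to 1.22) in Y-linked nuclei. In all, 3 of 12 genes were higher than in other macrophage nuclei, Hmox1 (2.62, 1.87 to 3.76), Blvrb (2.63) and Spic (3.85, 1.40 to 14.8). Of 8 NRF2 target genes tested, 3 were at least 2-fold higher than on the monocyte side and 0 lower, with a median ratio of 1.60, namely Txnrd1 (163 against 31.9 CPM), Gclm of glutathione synthesis (102 against 19.2 CPM) and the peroxiredoxin Prdx1 (247 against 51.1 CPM). Only Hmox1 of these 8 passed 2-fold against other macrophage nuclei when all nuclei were summed, and in Y-linked nuclei its ratio was 1.96 (1.36 to 2.91).

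Lipid-associated macrophage genes were at least 2-fold higher than on the monocyte side in 6 of 14 tested, with 0 lower and a median ratio of 1.92. Over all genes tested 12.2% were higher and 6.04% lower. Summed over the list, the ratio was 1.98 (1.78 to 2.21). Gpnmb, a membrane glycoprotein of lipid-laden macrophages, had 553 UMIs in 93 of 159 Mrc1-type nuclei and 3 UMIs in 2 of 39 monocyte-side nuclei (771 against 19.2 CPM), a ratio of 40.3 (13.7 to 196). The fatty acid carrier Fabp5 stood at 124 against 19.2 CPM, the cholesterol exporter Abcg1 at 124 against 31.9 CPM and the protease Ctsb at 813 against 326 CPM. After thinning, 34.4% of Mrc1-type nuclei held a Gpnmb UMI, against 18.3% of other macrophage, 2.56% of monocyte-side and 1.52% of stromal nuclei. The monocyte side was thus near the background share for Gpnmb, and Mrc1-type nuclei were far above it.

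Against other macrophage nuclei 5 of 16 lipid-associated genes were higher and 0 lower, with Apoe first and the proteases Ctsd (285 against 106 CPM), Ctsb and Ctsl among them. Gpnmb was within 2-fold of these nuclei (771 against 422 CPM, ratio 1.83, 1.49 to 2.26), though its ratio was 3.96 (2.38 to 7.06) in Xist nuclei and 1.36 (1.07 to 1.73) in Y-linked nuclei, and Abcg1 was lower at 124 against 228 CPM (0.544, 0.388 to 0.768). Of 10 scavenger and endocytic receptors tested, 0 were at least 2-fold higher than on the monocyte side and 1 was lower, the inhibitory Fc receptor gene Fcgr2b (0.484). Against other macrophage nuclei 5 of 10 were higher and 0 lower, among them Cd36 (384 against 190 CPM) and the lectin gene Clec4n (176 against 76.0 CPM). Efferocytosis genes had a median ratio of 0.978 to the monocyte side, with Gas6 and Nr1h3 of 12 tested at least 2-fold higher and 0 lower. Over all genes tested 12.2% were higher and 6.04% lower, so the efferocytosis list as a whole was not set apart. The median ratio of efferocytosis genes to other macrophage nuclei was 1.01, with Gas6 and Stab1 of 13 higher and the receptor gene Axl (20.9 against 57.0 CPM) and the integrin gene Itgav (460.4 against 1080 CPM) lower.

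Osteoclast-side genes parted Mrc1-type from other macrophage nuclei. Of 4 tested 3 were at least 2-fold lower, and the list had a ratio of 0.350 (0.311 to 0.395). The bone-resorbing protease Ctsk stood at 19.5 against 376 CPM, the proton pump subunit gene Atp6v0d2 at 87.9 against 437 CPM and the transcription factor gene Nfatc1 at 169 against 585 CPM. The RANK receptor gene Tnfrsf11a was within 2-fold, at 455 against 532 CPM. Mrc1-type nuclei were near the monocyte side for the whole list, at 752 against 843 CPM, but 1 of 3 genes tested was at least 2-fold higher in Mrc1-type nuclei, Atp6v0d2 at 87.9 against 12.8 CPM.

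Alternative activation genes other than Mrc1 gave no common direction against the monocyte side. Of 16 listed genes, 6 had 0 UMIs, among them Retnla, Ccl17, Cd209a and Ear2. Of 5 tested 1 was at least 2-fold higher than on the monocyte side and 0 lower. The higher one was the nuclear receptor Pparg, which controls lipid genes, at 187 against 57.5 CPM (3.25, 1.66 to 7.27), and it stood at 125 CPM in other macrophage nuclei. Its ratio to the latter was 4.12 (1.81 to 11.5) in Xist nuclei and 0.774 (0.456 to 1.34) in Y-linked nuclei, and to the monocyte side 3.03 and 8.72. The interleukin 4 receptor gene Il4ra stood at 211 CPM, against 236 CPM on the monocyte side and 87.4 CPM in other macrophage nuclei. The whole list stood at 777 CPM in Mrc1-type and 540 CPM in other macrophage nuclei (ratio 1.44, 1.20 to 1.74). Of the 5 genes tested in that comparison 4 had ratios above 1, with 1 at least 2-fold higher and 0 at least 2-fold lower. Of 22 transcription factor genes tested against the monocyte side, Maf and the oxysterol receptor gene Nr1h3 (4.15, 1.07 to 35.5) were at least 2-fold higher and Bhlhe40 (0.459) lower. Against other macrophage nuclei Maf was the only one of 22 past 2-fold. These counts lay near the shares over all genes tested, 12.2% higher and 6.04% lower on the first side and 5.63% and 6.22% on the second. The transcription factor list as a whole was thus not set apart.

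Single genes with extreme ratios were often sparse. Against the monocyte side the highest beside Gpnmb and Igf1 were Samd4 (194 against 6.39 CPM), which stood at 801 CPM in stromal nuclei, and Ampd3, a deaminase of AMP, with 91 UMIs in 54 nuclei against 1 UMI. Gas2l3, a cytoskeletal linker gene, followed with 152 UMIs in 69 nuclei against 2 UMIs. Gpr141, a receptor of myeloid cells, was among the lowest, at 34.9 against 459.9 CPM. These ratios have wide intervals on the monocyte side, that of Gas2l3 running from 4.52 to 138. Against other macrophage nuclei Lama2 came first, but 79.6% of its 54 UMIs came from 1 nucleus, and Tlr8 (77 UMIs in 48 nuclei against 5 UMIs in 5) and Etv1 (48 UMIs in 30 nuclei against 2 UMIs in 2) were more widely spread. Among the lowest, Mast4 (23.7 against 863 CPM) had 43.2% of the UMIs of the other macrophage nuclei in 1 nucleus, and the transcription factor gene Jdp2 stood at 67.0 against 650.0 CPM.

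Within the Mrc1-type nuclei, those with more Mrc1 than F13a1 UMIs (64 nuclei, 297347 UMIs) were set beside those with more F13a1 (86 nuclei, 381384 UMIs), a division made after the values had been seen. Among 4104 genes tested, 134 were at least 2-fold higher in the Mrc1-led nuclei and 79 in the F13a1-led nuclei, and without cycling nuclei 93 and 96. Lists of other cell types differed as well. Endothelial (151 against 57.7 CPM), B cell (74.0 against 28.8 CPM) and neutrophil genes (151 against 81.3 CPM) stood higher in Mrc1-led nuclei. Erythroid (3.36 against 36.7 CPM) and monocyte genes (1187 against 1453 CPM) stood lower, and the part of these lists was not tested. Mrc1-led nuclei had more Pparg (269 against 110 CPM, ratio 2.44, 1.66 to 3.64) and more Ms4a7 (1433 against 960 CPM), a membrane protein of macrophages that was part of the rule. F13a1-led nuclei had more of the hypoxia list, 1164 against 713 CPM, a ratio of Mrc1-led to F13a1-led of 0.612 (0.518 to 0.723). Hmox1 also stood higher in them, at 498 against 259 CPM. It was found in a near equal share of nuclei, 23 of 64 Mrc1-led and 31 of 86 F13a1-led. Both groups remained below the monocyte-side nuclei for the hypoxia list (2255 CPM).

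Some large differences came from few nuclei. The elastase gene Mmp12 had 66 UMIs in Mrc1-led and 0 in F13a1-led nuclei, but 84.8% came from 1 nucleus. More widely spread were the leukotriene receptor gene Cysltr1, in 4 of 64 Mrc1-led and 21 of 86 F13a1-led nuclei, and the Notch ligand gene Jag1, in 7 and 23. The endothelin receptor gene Ednrb was found in 6 and 21 nuclei, with 33.7% of its UMIs in 1 nucleus. Igf1 was near equal, at 447 and 383 CPM (ratio 1.17, 0.917 to 1.49), as was the anti-inflammatory list (1.11, 0.951 to 1.30). Other secretome genes differed past 2-fold, with Cxcl16 higher in Mrc1-led nuclei (118 against 52.4 CPM, ratio 2.24, 1.26 to 4.10) and Pros1 (40.4 against 91.8 CPM, ratio 0.440, 0.208 to 0.868) and Cxcl2 lower (10.1 against 52.4 CPM).

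Cell cycle genes were carried by part of the nuclei. They summed to 1271 CPM in Mrc1-led and 354 CPM in F13a1-led nuclei, a ratio of 3.59 (2.94 to 4.40). The nucleus with the most UMIs of a gene held 36.4% of the UMIs for Kif11, 32.5% for Top2a and 25.5% for Mki67. At least 5 UMIs of the list were present in 16 of the 159 nuclei (10.1%, 5.86 to 15.8%), in 9 of 64 Mrc1-led and 7 of 86 F13a1-led nuclei, in 8 of 77 other macrophage (10.4%, 4.59 to 19.4%) and in 3 of 39 monocyte-side nuclei (7.69%, 1.62 to 20.9%). A UMI of Mki67 or Top2a, both genes of dividing cells, was present in 19 Mrc1-type nuclei (11.9%). The intervals overlapped, and nuclei with at least 5 list UMIs were deep (median 7428 UMIs), against 4159 for all 159. The part of depth in these shares was not tested.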

How the data were processed

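The authors sorted nuclei, made 10x Genomics 3′ libraries and, per the labels, counted intronic and exonic reads with Cell Ranger (version 7.0.1 per the file headers); the submitters' processing notes name the build mm10. One protocol text names a human reference, but all 32285 gene identifiers in both tables are mouse identifiers. The deposited values are raw UMI counts per gene and barcode, without normalization.

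In the day 5 post-MTI library, barcodes with 200 to 5000 genes, under 5% mitochondrial and under 2% ribosomal protein UMIs were retained. The 1446 deposited barcodes held 500 to 45740 UMIs (median 2246), and the 1127 retained nuclei had a median of 2364. The day 1 post-fracture library (9389014 UMIs) was used only to count nuclei that meet the rule. The libraries shared 33 barcode sequences, 1 of them of an Mrc1-type nucleus. UMIs were summed per population and divided by the population's total (CPM). Ratios were taken for genes with at least 30 pooled UMIs, with a gene at 0 set against 3 UMIs, and a fold of 2 or 0.5 was the limit for calling a difference. Intervals are exact Poisson (CPM), exact Clopper-Pearson (shares) and exact conditional binomial (ratios), at 95%, and cover counting error only. Doublets marked by scrublet in scanpy 1.11.5 were kept. The comparison script was tested on simulated data. Python 3.11.15, numpy 2.4.6, scipy 1.17.1, pandas 2.3.3 and matplotlib 3.10.9 were used.

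Genes were named as the 10 highest and 10 lowest ratios against monocyte-side nuclei and against other macrophage nuclei and the 15 highest against all others, with a UMI in at least 10 nuclei, together with members of the gene lists. Of these only those with enough UMIs or a known role are described, and that choice and the comparison with other macrophage nuclei were made after the values were seen. The nuclei and all lists were chosen with earlier results of these data known. A further condition of the rule, and results that need it, are not reported here. Clec7a of the scavenger list was not analysed here. Alternatives changed the filters, the rule, the minimum of pooled UMIs, the scaling and the depth of the nuclei. Promoter sequences came from RefSeq (GRCm38.p6), where 13 of 14 hypoxia list genes and all 4 marker genes were found.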

Additional observations from a re-analysis of the deposited data

Results flagged for a closer look

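Nuclei with the Mrc1-type marker pattern were also found outside the nuclei analysed. Of the 319 barcodes removed from the day 5 post-MTI library, 15 met the marker part of the rule. The mitochondrial limit removed 14 of them, and the mitochondrial share of the 15 ran from 0.129 to 14.2% with a median of 7.72%. They had 44 Mrc1 and 97 F13a1 UMIs and stood at 953 CPM (770 to 1166) for the glycolysis and hypoxia list, against 951 CPM in the 159 Mrc1-type nuclei. In the day 1 post-fracture library 6 of 5410 nuclei within the same filters met the rule, with 7 Mrc1 and 7 F13a1 UMIs between them and a median of 460.5 UMIs per nucleus. Under the filters that the study set for that day, 2 of 2405 nuclei met it. The libraries differ in injury, day and depth, which cannot be told apart, so these shares are not compared.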

How the results depend on the processing

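The number of Mrc1-type nuclei stayed within 118 to 186 under all alternatives run. Their share of retained nuclei left its interval with a minimum of 500 genes (17.5%), a mitochondrial limit of 0.5% (17.8%) and 1 marker UMI (16.5%). The share also left it when nuclei were removed by the other-lineage lists named above (16.6%). The numbers of genes past 2-fold depended on the minimum of pooled UMIs. Against monocyte-side nuclei 1000, 284 and 1206 genes were higher and 578, 133 and 1923 lower at minimums of 15, 60 and 1, against 586 and 291, with 380 higher among nuclei of 1000 to 5000 UMIs. Against other macrophage nuclei 575, 159 and 1019 were higher and 681, 140 and 1727 lower, against 296 and 327, with 135 lower among nuclei of 1000 to 5000 UMIs. Between Mrc1-led and F13a1-led nuclei 25 and 28 genes passed at a minimum of 60, against 134 and 79, and 93 and 96 passed without cycling nuclei. At a minimum of 1 the monocyte-side balance turned to more lower genes. The balance against other macrophage nuclei turned to more higher genes at a minimum of 60 (159 and 140), among nuclei of 1000 to 5000 UMIs (221 and 135), without the 5 deepest nuclei (282 and 246) and with every nucleus weighted equally (411 and 359). The other alternatives left these numbers within 1.5 times.

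The hypoxia list ratio to the monocyte side of 0.422 stayed between 0.373 and 0.477. The anti-inflammatory ratio of 4.61 was 32.5 among nuclei of 1000 to 5000 UMIs and 7.26 with every nucleus weighted equally, and higher in Mrc1-type nuclei throughout. These 2 lists and the comparison with other macrophage nuclei were recomputed after seeing the data, and the cause was not tested. No paired analysis was possible because each condition had 1 library. At 0 UMIs a level of up to 4.19 CPM in Mrc1-type nuclei, 11.4 CPM in other macrophage and 19.2 CPM in monocyte-side nuclei stays possible.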
